A study of Mus musculus with 18 samples.

Results

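Adding the PI3K inhibitor CLR457 to the SHP2 inhibitor SHP099 was followed in 4T1 mammary tumors by comparing the 5 tumors treated with both compounds (Combo) with the 4 treated with SHP099 alone (SHP2i), 9 of the 18 tumors sequenced. The 4T1 line is a mouse model of triple-negative mammary carcinoma that is transplanted into mice of its own strain. In all groups 300000 cells were placed in the mammary fat pad of female Balb/c mice at 8 weeks of age. The mice were treated from day 7, and the tumors were taken on day 21. The other 9 tumors, 5 of mice given the vehicle (Vehicle) and 4 of mice given CLR457 alone (PI3Ki), entered the same fit and give the effect of CLR457 without SHP099. Each tumor was 1 library of poly(A) RNA, and all came from 1 cell line. Libraries held 21.6 to 23.54 M counts in SHP2i and 22.84 to 24.77 M in Combo, a difference that an exact permutation test did not call (two-sided, p = 0.143).

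PI3K phosphorylates a membrane lipid that recruits and activates the kinase AKT, and AKT in turn keeps FOXO transcription factors out of the nucleus and favors the processing of SREBP factors, which drive lipid synthesis genes. SHP2, the phosphatase encoded by Ptpn11, links receptor tyrosine kinases to RAS and ERK. When either branch is inhibited, receptors and adaptors that it normally holds down can be made again, a feedback for which both pathways are known. In mammary carcinomas both signals also act in the cells around the carcinoma cells, among them endothelial cells, fibroblasts and leukocytes.

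Both groups lacked the high level of skeletal muscle genes seen in PI3Ki tumors. The 20 tested muscle genes summed to 115 to 137 counts per M counts (CPM, scaled by TMM) in SHP2i, 112 to 199.6 in Combo, 112 to 225 in Vehicle and 1121 to 2527 in PI3Ki. Within Combo the mean log2 CPM of the list relative to the SHP2i mean was 2.59 in replicate 2 and 1.79 in replicate 3, and 0.07, -0.35 and -0.37 in replicates 1, 4 and 5. Genes of B and plasma cells were high in Combo replicates 3 and 4 (3.27 and 3.86), and at -1.08, -0.45 and -0.91 in the others. Counts of list members that lead a paragraph are therefore also given without these tumors where they move by over 1.5 times. The keratin Krt18, an epithelial gene that carcinoma cells keep, was at 276 to 431 CPM in SHP2i and 238 to 368 CPM in Combo.

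Of 15282 genes tested, 220 were higher in Combo (1.44%) and 479 lower (3.13%), 4.57% in all, taking an adjusted p below 0.05 together with a log2 fold change beyond 1 in size, which is called changed below. At the adjusted p alone, 11.8% of genes were higher and 10.3% lower, and these shares are the background for the gene lists that follow. The lists were written with earlier results of these data known, so their counts describe the lists and are not a test. The median log2 fold change over all genes was 0.03. In 157 of the 220 and 330 of the 479 changed genes the 5 Combo tumors did not overlap the 4 SHP2i tumors. Over all genes tested, 9.86% had every Combo tumor above every SHP2i tumor and 7.26% had every one below. Genes named below that overlap another gene in the annotation, with which they may share reads, include Pik3ca, Map1lc3b, Cxcl10, Timp3, Adamts4, Bak1, Shmt2, Slc16a3, Il1b, Bcl2l11 and Prnd, and others overlap microRNA, antisense or predicted genes. The strand setting of the counting is not given in the sources used here. In bulk tumors, fewer cells of a type cannot be told apart from less RNA per cell, which holds for every cell type below.

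The largest rises included epithelial barrier, mucous and matrix genes. Rises and falls are on the log2 scale throughout. Values are given in replicate order, 2 to 5 for SHP2i and 1 to 5 for Combo. Sprr2a1, which codes for a small proline-rich protein of the cornified envelope, was at 0.483, 5.02, 4.12 and 1.03 CPM in SHP2i and 136, 30.7, 32.3, 29.6 and 13.4 CPM in Combo (log2 fold change 4.19, standard error 0.92, adjusted p = 0.00429). Its neighbor in the same family, Sprr2a2, was at 7.84, 22.9, 17.9 and 11.9 CPM in SHP2i and 336, 84.2, 88.2, 85.8 and 45.2 CPM in Combo (log2 fold change 3.08, standard error 0.48, adjusted p = 0.000415). Reads of these near-identical copies may be split between them in ways the counts do not resolve. Clca1, a secreted protein of goblet cells, rose by 3.25 (standard error 0.75, adjusted p = 0.00592) and Msln, the surface protein mesothelin, by 2.90 (adjusted p = 7.93e-05). Clca2, a relative of Clca1 found in basal epithelium, moved the other way, from 6.68, 15.1, 8.96 and 8.15 CPM in SHP2i to 1.66, 1.61, 1.14, 1.12 and 1.02 CPM in Combo (log2 fold change -2.88, standard error 0.26, adjusted p = 9.23e-06). Of the 21 tested members of the epithelial secretory and barrier list, 4 were higher, all 4 of them changed, of which 3 are such copies of the Sprr2a family, and 1 was lower (4 without Combo replicate 1), with a median of 0.29.

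Genes for matrix adhesion, hormones and retinoid handling were also among the 12 largest rises. Itga10, the alpha10 subunit of a collagen-binding integrin (chromosome 3, 96645584 to 96664519, GRCm38.p6), was at 7.97, 10.4, 11.6 and 14.4 CPM in SHP2i and 45.3, 55.1, 77.4, 96.8 and 132 CPM in Combo. All 5 Combo tumors lay above all 4 SHP2i tumors, which the choice of the largest rises required (log2 fold change 2.87, standard error 0.31, adjusted p = 3.02e-05). Npnt, the matrix protein nephronectin, was at 39.95, 85.0, 52.2 and 32.7 CPM in SHP2i and 281, 238, 177, 591 and 354 CPM in Combo (log2 fold change 2.65, standard error 0.37, adjusted p = 0.000192), again without overlap by that choice. Cadps, a protein of dense-core vesicle release, rose by 3.15 (adjusted p = 0.000432), Spns3, a predicted lipid transporter, by 2.42 (adjusted p = 9.23e-06) and Notum, a secreted enzyme that inactivates WNT proteins, by 2.27 (adjusted p = 0.000343). Crabp2, which carries retinoic acid within cells, rose by 2.76 (adjusted p = 0.0069), and by 1.23 without Combo replicates 2 and 3, where the call was lost (adjusted p = 0.0559). Fgf23, a phosphate-regulating hormone, rose by 2.61 (adjusted p = 0.0304), with adjusted p values of 0.0514 to 0.0869 when Combo replicate 3 or 4 or any 1 SHP2i tumor was left out, and at 1.59 (adjusted p = 0.191) without Combo replicates 3 and 4. Aldh1a1, an enzyme that makes retinoic acid, was at 2.05, 3.01, 4.83 and 2.37 CPM in SHP2i and 8.62, 6.08, 7.02, 7.43 and 36.0 CPM in Combo (log2 fold change 2.08, standard error 0.63, adjusted p = 0.0251). Combo replicate 5 held the highest value, and without it the log2 fold change was 1.25 (adjusted p = 0.0997). The call was also lost without SHP2i replicate 2, 3 or 5 (adjusted p = 0.0775, 0.0543 and 0.0673).

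The largest falls included vascular and inflammatory genes. Aplnr, the receptor for apelin on endothelial cells (chromosome 2, 85136360 to 85139923), was at 39.7, 32.3, 33.5 and 35.7 CPM in SHP2i and 4.68, 5.68, 5.92, 2.85 and 2.83 CPM in Combo (log2 fold change -3.004, standard error 0.31, adjusted p = 1.72e-05). Prnd, which codes for the prion-like protein doppel and overlaps Prn, was at 33.7, 62.7, 23.7 and 22.0 CPM in SHP2i and 2.93, 4.07, 4.94, 4.32 and 5.76 CPM in Combo (log2 fold change -3.01, standard error 0.28, adjusted p = 9.23e-06). In both genes the highest Combo tumor lay below the lowest SHP2i tumor, which the choice of the largest falls required. Bmp2, a ligand of the BMP family, fell by 2.91 on the log2 scale (adjusted p = 0.00015), and Fbn2 (fibrillin-2, of matrix microfibrils) and C1qtnf3 (a secreted C1q-like protein) fell by 2.73 and 2.57 (adjusted p = 0.000224 and 0.00898). Cxcl2, a chemokine for neutrophils, was at 8.05, 2.69, 22.5 and 15.3 CPM in SHP2i and 1.79, 2.01, 1.63, 0.561 and 0.177 CPM in Combo (log2 fold change -3.29, standard error 0.67, adjusted p = 0.00256). The macrophage lectins Cd209f and Cd209g, similar copies whose reads may be shared, had log2 fold changes of -2.85 and -2.68 (adjusted p = 0.00106 and 0.00411). The chemokine Cxcl10, the itaconate-forming enzyme gene Acod1 and the neutrophil gene S100a9 had -2.60, -2.59 and -2.81 (adjusted p = 0.000293, 0.00121 and 0.014). The call of S100a9 was lost without Combo replicates 2 and 3 and without Combo replicates 3 and 4 (adjusted p = 0.0552 and 0.0747).

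**Figure D1:**
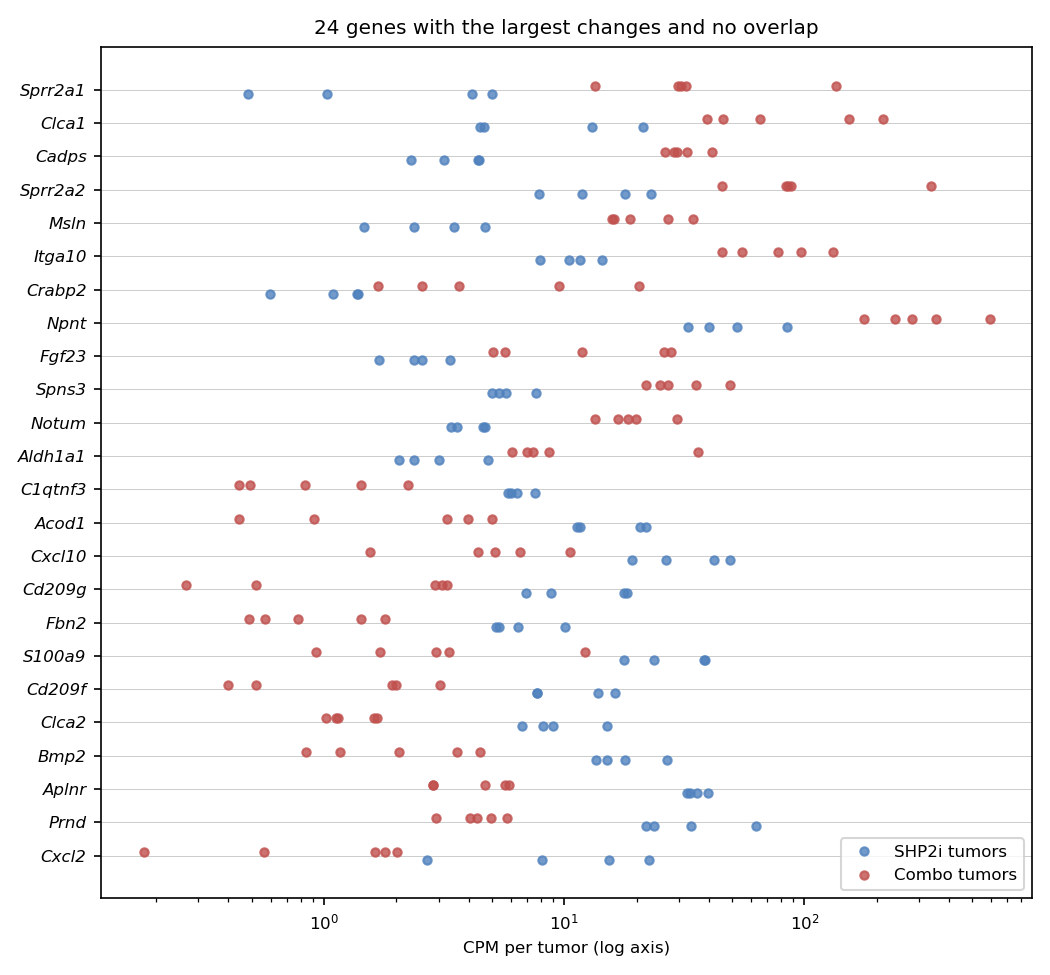
CPM in each tumor, on a log axis, for the 12 genes with the largest rise and the 12 with the largest fall, each point 1 tumor (4 SHP2i in blue, 5 Combo in red). In every row the red and blue points do not overlap, which the choice of the genes required; Sprr2a1 runs from 0.483 to 5.02 CPM in SHP2i to 13.4 to 136 CPM in Combo.

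Most genes of the list of FOXO targets and receptor feedback were higher in Combo. Of 36 list members tested, 22 were higher (background 11.8% of all genes) and 2 lower (background 10.3%). The median log2 fold change was 0.60 against 0.03 over all genes. In 22 members every Combo tumor lay above every SHP2i tumor, against 9.86% of all genes tested. Insr, the insulin receptor, was at 63.5, 65.5, 62.4 and 63.6 CPM in SHP2i and 108, 111, 101.4, 112 and 128 CPM in Combo. The SHP2i tumors lay close together and all Combo tumors lay above them (log2 fold change 0.81, standard error 0.12, adjusted p = 0.000239). Irs1, the adaptor that joins this receptor to PI3K and that was named after its values were seen, was at 85.0, 83.0, 72.4 and 77.2 CPM in SHP2i and 129, 141, 120.4, 165 and 144 CPM in Combo (log2 fold change 0.82, standard error 0.14, adjusted p = 0.000766). Pik3ip1, a membrane protein that inhibits PI3K, was at 15.5, 20.9, 14.8 and 24.6 CPM in SHP2i and 52.0, 30.9, 41.5, 66.6 and 53.0 CPM in Combo (log2 fold change 1.37, standard error 0.20, adjusted p = 0.00028). Gadd45a, a stress gene that restrains the cell cycle, was at 52.2, 54.7, 50.0 and 58.8 CPM in SHP2i and 136, 114, 115, 298 and 251 CPM in Combo (log2 fold change 1.76, standard error 0.28, adjusted p = 0.000439). In these genes, too, the groups did not overlap, and for Gadd45a Combo replicates 4 and 5 lay well above the other 3.

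The other FOXO list members named by level or p were Bcl6, a transcriptional repressor, Map1lc3b, a core protein of autophagosomes, and Txnip, which inhibits thioredoxin and glucose uptake. They rose by 0.76 (adjusted p = 0.000293), 0.63 (adjusted p = 0.00152) and 0.80 (adjusted p = 0.00386) on the log2 scale. Bcl2l11, which codes for the apoptosis inducer BIM and is known as a FOXO target, was at 42.5, 50.9, 56.1 and 55.1 CPM in SHP2i and 76.7, 73.7, 83.5, 104 and 123 CPM in Combo (log2 fold change 0.85, standard error 0.16, adjusted p = 0.00163). It also overlaps Acoxl. Sesn1, a stress-induced inhibitor of mTORC1 that was named after its values were seen, rose, with 33.0 to 43.9 CPM in SHP2i and 45.7 to 99.5 CPM in Combo (log2 fold change 0.80, standard error 0.18, adjusted p = 0.00573). The cell cycle inhibitor Cdkn1b (p27) rose by 0.42 (adjusted p = 0.00101), a small change in which the groups did not overlap. The other genes in this paragraph were named after their values were seen. Irs2 and Erbb3 did not pass, at 0.448 and 0.705 (adjusted p = 0.192 and 0.256). Trim63, Pdk4 and Fbxo32 were higher, at 4.344, 1.417 and 1.322 (adjusted p = 0.0159, 0.0193 and 0.0014). The muscle list differed among the Combo tumors too. Relative to the SHP2i mean it was at 2.593 and 1.788 in replicates 2 and 3. In replicates 1, 4 and 5 it was at 0.075, -0.354 and -0.371. In PI3Ki against Vehicle, where muscle genes were high in PI3Ki, these 3 were at 6.327, 2.9 and 0.968. The part of muscle tissue in their level was not tested.

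Promoter windows of 3 of these genes are shown because they hold the FOXO-type letters TGTTTAC or their reverse complement GTAAACA, set in capitals. Each window runs from 250 bases before to 50 after the start of the gene, on the plus strand of GRCm38.p6 (RefSeq), at chr2:128125788-128126087 for Bcl2l11, chr3:96557707-96558006 for Txnip and chr10:41810324-41810623 for Sesn1. In Bcl2l11 and Txnip the letters lie before the start and in Sesn1 after it.
Bcl2l11: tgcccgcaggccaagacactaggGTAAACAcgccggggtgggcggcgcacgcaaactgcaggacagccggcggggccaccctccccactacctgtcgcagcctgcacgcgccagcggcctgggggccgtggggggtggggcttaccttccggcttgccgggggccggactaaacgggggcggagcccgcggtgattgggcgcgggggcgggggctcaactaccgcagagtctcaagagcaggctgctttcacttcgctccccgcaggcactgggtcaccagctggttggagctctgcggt
Txnip: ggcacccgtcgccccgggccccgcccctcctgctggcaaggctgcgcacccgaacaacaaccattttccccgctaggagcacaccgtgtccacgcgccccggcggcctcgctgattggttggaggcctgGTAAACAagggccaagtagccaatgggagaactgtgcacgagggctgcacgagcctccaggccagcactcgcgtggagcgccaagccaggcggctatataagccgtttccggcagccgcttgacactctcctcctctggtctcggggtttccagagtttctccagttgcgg
Sesn1: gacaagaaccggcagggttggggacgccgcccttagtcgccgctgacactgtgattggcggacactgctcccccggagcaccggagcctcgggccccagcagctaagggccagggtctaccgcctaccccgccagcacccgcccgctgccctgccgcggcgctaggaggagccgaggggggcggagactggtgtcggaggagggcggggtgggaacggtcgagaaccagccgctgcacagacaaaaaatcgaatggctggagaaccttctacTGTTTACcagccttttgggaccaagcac
Windows were found for 28 of the 36 FOXO list genes, 5 of the 28 held these letters on either strand, and the 3 shown are among the 4 of the 5 that were higher in Combo. Over the first window of each gene, 3.12% of 160 changed genes that were higher, 2.29% of 350 that were lower and 2.48% of 12029 genes tested held them. The AP-1 letters TGAGTCA were in 6.88%, 7.43% and 4.01%, the E-box CACGTG in 10%, 6.57% and 9.67%, and the ETS letters GGAAGT in 20%, 28.3% and 27.9%. These shares describe the windows and were not tested.

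Genes of sterol synthesis were lower in Combo. Of 32 members of the sterol and fatty acid synthesis list, 22 were lower at an adjusted p under 0.05 by edgeR (background 10.3%). By the same test 0 were higher (background 11.8%), and the list had a median of -0.59. In 20 of the 32 every Combo tumor lay below every SHP2i tumor, against 7.26% of all genes tested. Fdps, which makes farnesyl diphosphate, was at 91.9, 92.4, 69.8 and 65.8 CPM in SHP2i and 38.6, 42.5, 25.3, 31.6 and 24.4 CPM in Combo (log2 fold change -1.30, standard error 0.17, adjusted p = 0.000128). Msmo1, a demethylating oxidase of the same pathway, was at 65.8, 61.5, 54.3 and 50.6 CPM in SHP2i and 31.7, 34.6, 23.3, 26.0 and 23.3 CPM in Combo (log2 fold change -1.06, standard error 0.13, adjusted p = 6.21e-05). In both the groups did not overlap. Srebf2, the SREBP factor for sterol genes, fell by 0.69 (adjusted p = 0.000201), with 141 to 169 CPM in SHP2i and 83.3 to 105 CPM in Combo.

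Of the 10 members that did not pass, 2 (Tm7sf2 and Ebp, named after their values were seen) code for sterol enzymes, and the others belong to fatty acid synthesis and its supply or to its control. Scd2, a desaturase of fatty acids, was at a log2 fold change of -0.14 (adjusted p = 0.441). Scd1, the desaturase of liver and fat, was at 648, 598, 794 and 557 CPM in SHP2i and 436, 1162, 2611, 266 and 295 CPM in Combo, so that Combo replicates 2 and 3 lay far above the other tumors (log2 fold change 0.56, standard error 0.54, adjusted p = 0.479). These replicates also had the highest mean level of 13 adipocyte genes, 0.40 and 1.18 relative to SHP2i on the log2 scale, against -0.76, -1.44 and -0.83 in the others. Without both, Scd1 was at -0.97 (adjusted p = 0.0358). The part of fat cells in the level of Scd1 was not tested further.

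Counts of 1 or 2 members in a list were often gained or lost when 1 tumor was left out. None of the 13 adipocyte genes passed the test by edgeR.

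**Figure D2:**
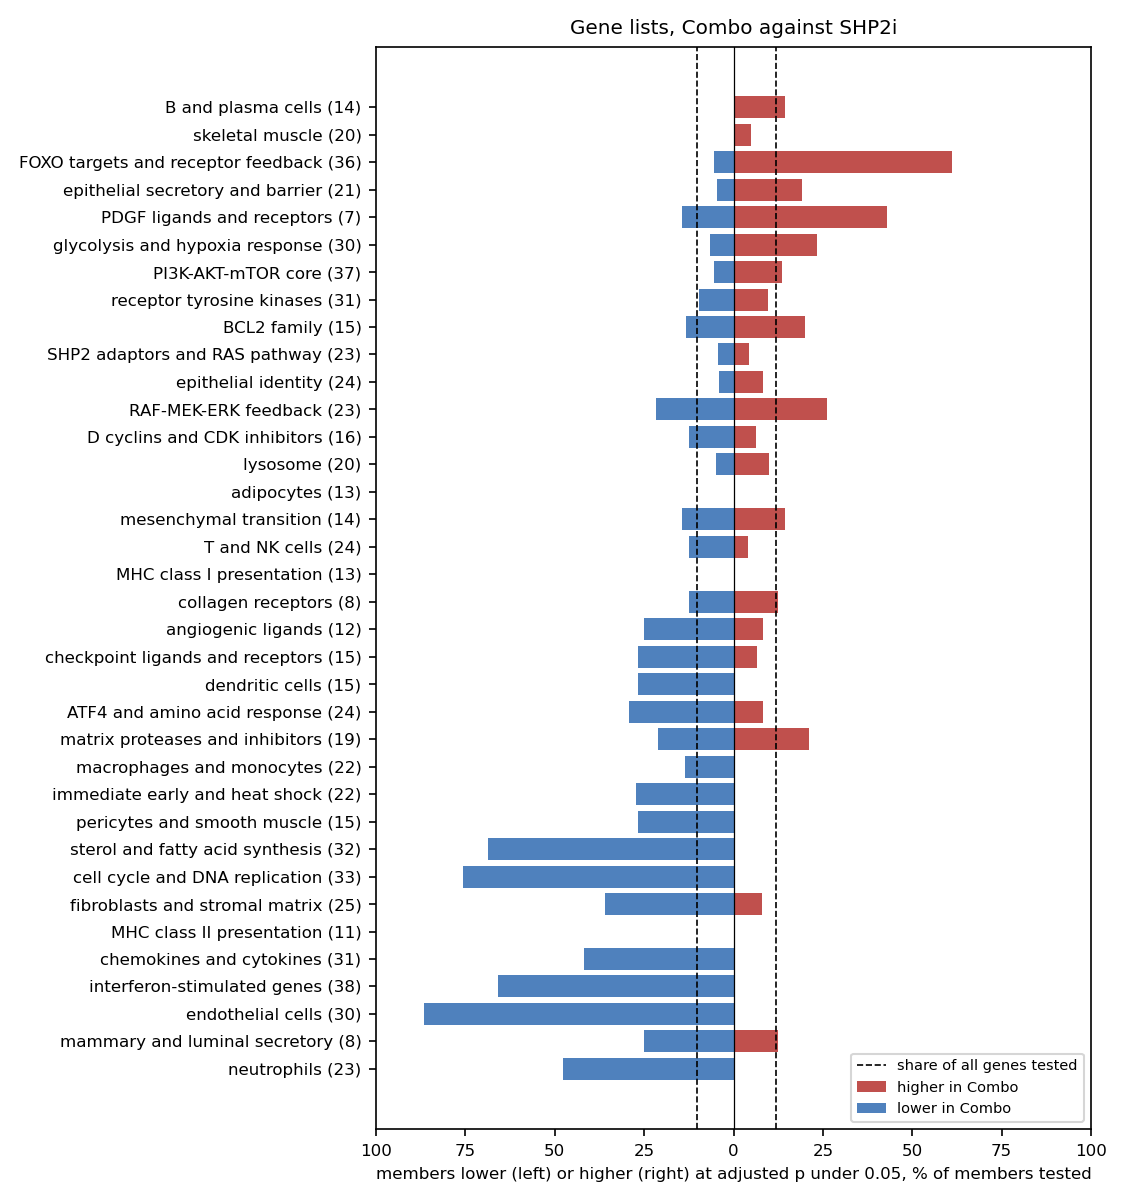
Share of the tested members of each gene list that were higher (red, right) or lower (blue, left) in Combo than in SHP2i at an adjusted p under 0.05 by edgeR, with the number tested in parentheses; dashed lines mark the shares of all genes, 11.8% and 10.3%. Endothelial, cell cycle, sterol and interferon lists extend far to the left and the FOXO list (22 of 36 higher) far to the right. The short list of lymph node genes is not drawn.

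Genes of the PI3K pathway itself gave few calls. Of 37 members, 5 were higher and 2 lower, a share close to the background, and the number higher was 1 without Combo replicate 5, without SHP2i replicate 2 or with scaling to the library total, and 3 without Combo replicate 1, 2 or 4 or SHP2i replicate 3, 4 or 5. Pik3ca, the catalytic subunit p110alpha, was at 66.3, 73.2, 68.7 and 71.8 CPM in SHP2i and 82.3, 94.7, 86.3, 109 and 100.1 CPM in Combo, with no overlap and a small difference (log2 fold change 0.43, standard error 0.09, adjusted p = 0.0021). The subunit genes Pik3cb, Pik3cd and Pik3cg and the regulatory subunit Pik3r1 were at -0.17 (adjusted p = 0.34), 0.40 (adjusted p = 0.439), -0.07 (adjusted p = 0.917) and 0.14 (adjusted p = 0.446). Pik3r3, another regulatory subunit, fell by 1.20 (adjusted p = 0.000992), with 6.91 to 8.08 CPM in SHP2i and 2.29 to 4.61 CPM in Combo. Sgk1, a kinase related to AKT, fell by 0.46 (adjusted p = 0.00108), and Rictor, the defining subunit of mTORC2, rose by 0.48 (adjusted p = 0.0238), with adjusted p values of 0.0602, 0.0734 and 0.0662 without Combo replicate 5, SHP2i replicate 2 and SHP2i replicate 3. Akt1 was at -0.10 (adjusted p = 0.394).

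On the side of SHP2, Ptpn11 was at 192 to 198 CPM in SHP2i and 173 to 207 CPM in Combo (log2 fold change -0.06, standard error 0.09, adjusted p = 0.673). SHP099 acts on the protein, so this level is no check of the treatment. Of 23 genes of SHP2 adaptors and the RAS pathway, 1 was higher and 1 lower. Frs2, the docking adaptor of FGF receptors, rose by 0.57 (adjusted p = 0.00282). Shc1, an adaptor that binds GRB2, was at 0.29 (adjusted p = 0.0504), and passed when Combo replicate 1 was left out (0.35, adjusted p = 0.0168), and likewise without Combo replicate 3 or SHP2i replicate 5 (adjusted p = 0.046 and 0.0391).

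Feedback genes of the RAF-MEK-ERK pathway moved in both directions, with 6 of 23 higher, 5 lower and a median of 0.01; 2 were higher without SHP2i replicate 2 and 3 without SHP2i replicate 4. Egr1, an immediate early transcription factor, was at 22.3, 18.4, 26.7 and 38.5 CPM in SHP2i and 7.92, 8.54, 14.97, 9.67 and 5.80 CPM in Combo (log2 fold change -1.496, standard error 0.23, adjusted p = 0.000377). Dusp5, a nuclear phosphatase of ERK, was at 8.49, 7.30, 12 and 11.2 CPM in SHP2i and 3.02, 3.62, 6.81, 3.84 and 3.10 CPM in Combo (log2 fold change -1.25, standard error 0.21, adjusted p = 0.000822). Both were lower in every Combo tumor than in any SHP2i tumor. Spry4, which restrains receptor signaling, and Plaur, the urokinase receptor, fell by 0.89 and 0.68 (adjusted p = 0.00183 and 0.000649). Spry1, a close relative of Spry4 named after its values were seen, moved the other way, with 114 to 172 CPM in SHP2i and 198 to 475 CPM in Combo (log2 fold change 1.16, standard error 0.24, adjusted p = 0.00325). Etv1, Dusp4, Etv5 and Spry2, also named after their values were seen, rose by 0.765, 0.519, 0.49 and 0.407. Their adjusted p values were 0.0021, 0.0252, 0.0153 and 0.0315. Of 22 immediate early and heat shock genes, 6 were lower and 0 higher by edgeR, among them Fos, which fell by 1.06 (adjusted p = 0.00391), and the chaperone Hsph1, which fell by 0.93 (adjusted p = 0.00141). The number lower was 3 without SHP2i replicate 4 or replicate 5.

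Among receptor tyrosine kinases, 3 of 31 were higher and 3 lower, near the background. With Combo replicate 3 left out 7 were higher, and with SHP2i replicate 3 or 5 left out 5 were. The number lower was 1 without any 1 SHP2i tumor and without Combo replicate 4 or 5. Besides Insr, Igf1r, the receptor of IGF1, rose by 0.47 (adjusted p = 0.0153), with an adjusted p of 0.055 without SHP2i replicate 2. Axl, a receptor linked to resistance and invasion, was at 539 to 604 CPM in SHP2i and 477 to 649 CPM in Combo (log2 fold change -0.04, standard error 0.12, adjusted p = 0.826). Epha7, an ephrin receptor, was under 1 CPM in all 9 tumors, with a log2 fold change of -1.07 (adjusted p = 0.188). Kit, the receptor of stem cell factor, fell by 0.52 (adjusted p = 0.0188), with adjusted p values of 0.0709 and 0.0559 without SHP2i replicates 3 and 5.

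The PDGF family showed opposite changes of its ligands. PDGF ligands drive fibroblasts and pericytes, PDGF-B from endothelial cells being the one that holds pericytes to vessels. Pdgfa was at 257, 283, 175 and 246 CPM in SHP2i and 522, 454, 381, 634 and 566 CPM in Combo (log2 fold change 1.09, standard error 0.15, adjusted p = 0.000224). Pdgfb was at 104, 123, 96.0 and 99.7 CPM in SHP2i and 43.1, 58.5, 51.6, 52.6 and 58.2 CPM in Combo (log2 fold change -1.002, standard error 0.11, adjusted p = 2.61e-05). The groups did not overlap in either gene, with Combo higher for Pdgfa and lower for Pdgfb. Pdgfc rose by 0.60 (adjusted p = 0.00421), and Pdgfd was at -0.42 (adjusted p = 0.243). The receptor gene Pdgfra was at 209, 320.0, 315 and 341 CPM in SHP2i and 464, 546, 492, 605 and 1026 CPM in Combo (log2 fold change 1.082, standard error 0.22, adjusted p = 0.00269). Its highest value was in Combo replicate 5 and its lowest in SHP2i replicate 2. Pdgfrb, the receptor of pericytes, was at 215 ± 34.5 CPM (SD, n = 4) in SHP2i and 212 ± 61.1 CPM (SD, n = 5) in Combo (log2 fold change -0.02, standard error 0.20, adjusted p = 0.952), and the receptor-like gene Pdgfrl at 0.20 (adjusted p = 0.364).

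**Figure D3:**
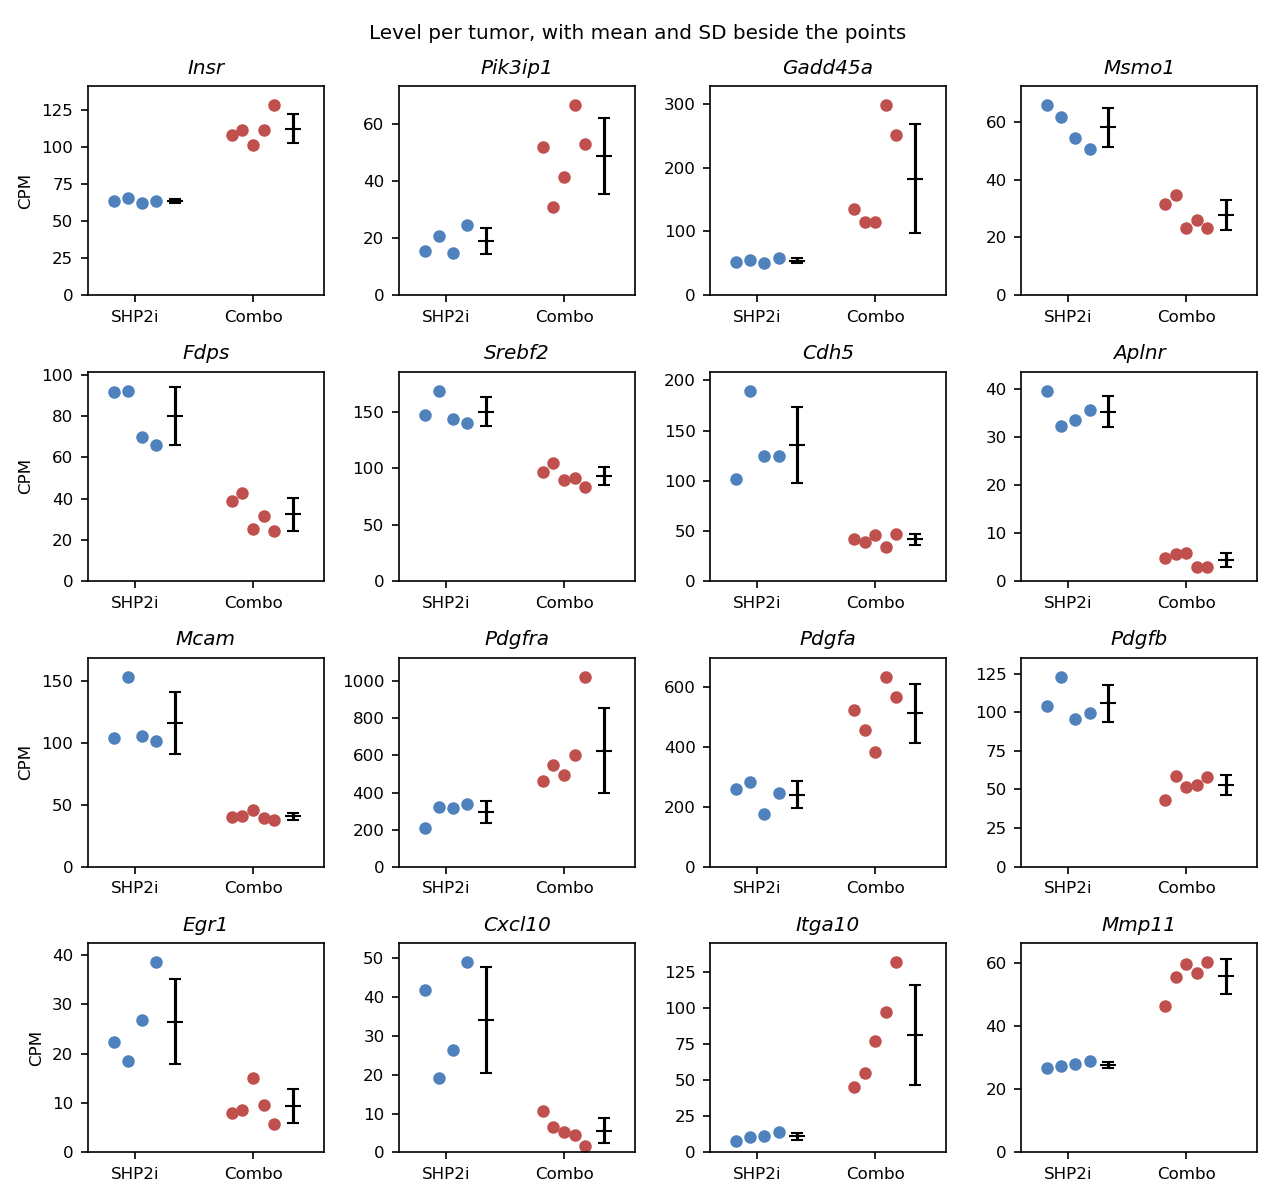
CPM of 16 genes in each of 4 SHP2i tumors (blue) and 5 Combo tumors (red) on linear axes that start at 0, with the group mean and SD as a black bar beside the points. Insr, Pik3ip1, Gadd45a, Pdgfra, Pdgfa, Itga10 and Mmp11 are higher in every Combo tumor and the other 9 genes lower; Itga10 runs from 7.97 to 14.4 CPM in SHP2i to 45.3 to 132 CPM in Combo.

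Genes of blood vessels were lower in Combo across nearly the whole list. Of 30 endothelial genes, 26 were lower and 0 higher by edgeR (background 10.3% and 11.8%), 17 of them changed. The list had a median of -1.06. In 23 of the 30 every Combo tumor lay below every SHP2i tumor, against 7.26% of all genes tested. The summed level was 1341 to 1929 CPM in SHP2i, 786 to 962 in Combo, 1194 to 1493 in PI3Ki and 1383 to 1617 in Vehicle. Cdh5, the cadherin of endothelial junctions, was at 102, 189.7, 125 and 125 CPM in SHP2i and 42.1, 38.8, 45.9, 34.1 and 46.5 CPM in Combo (log2 fold change -1.70, standard error 0.16, adjusted p = 9.23e-06). Rasip1, which vessels need to form a lumen, was at 22.8, 33.8, 26.1 and 21.4 CPM in SHP2i and 7.92, 8.23, 10.4, 8.90 and 9.26 CPM in Combo (log2 fold change -1.54, standard error 0.15, adjusted p = 9.23e-06). Egfl7, a matrix protein of growing vessels, fell by 1.31 (adjusted p = 2.11e-05), and Plvap, the diaphragm protein of fenestrated vessels, by 0.51 (adjusted p = 0.00892), the only one of these 4 genes whose groups overlapped.

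Of 12 genes for angiogenic ligands, 3 were lower and 1 higher. Apln, the ligand of Aplnr and a product of sprouting endothelial cells, was at 109.6, 159.9, 96.1 and 111 CPM in SHP2i and 41.1, 48.6, 49.4, 47.9 and 57.1 CPM in Combo (log2 fold change -1.29, standard error 0.18, adjusted p = 0.000183). Pgf, placental growth factor, fell by 0.81 (adjusted p = 0.000377), and Vegfc, the ligand for lymphatic vessels, rose by 0.64 (adjusted p = 0.00181). Vegfa was at 181, 149, 265 and 180.1 CPM in SHP2i and 333, 190.0, 371, 143 and 219 CPM in Combo, with overlapping groups (log2 fold change 0.38, standard error 0.27, adjusted p = 0.324). Among 15 genes of pericytes and smooth muscle, 4 were lower and 0 higher by edgeR, with a median of -0.57 (lower: 7 without Combo replicates 2 and 3). Mcam, a surface protein of pericytes and endothelium (chromosome 9, 44134658 to 44142727), was at 104, 154, 106 and 101.3 CPM in SHP2i and 39.9, 40.6, 45.7, 39.4 and 37.5 CPM in Combo (log2 fold change -1.51, standard error 0.12, adjusted p = 5.64e-06). The contractile genes Acta2 and Myl9 fell by 1.48 and 1.24 (adjusted p = 0.00655 and 0.014).

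Genes of collagen fibrils were lower, and 2 fibroblast genes higher. Of 25 fibroblast and matrix genes, 9 were lower and 2 higher, with a median of -0.64. The number lower was 5 without SHP2i replicate 4 and 17 without Combo replicates 2 and 3, 16 with the muscle genes as a covariate and 4 when the 9 tumors were fitted alone. Col1a1, a chain of type I collagen, was at 1367, 1596, 3404 and 2144 CPM in SHP2i and 413, 915, 1011, 271 and 204 CPM in Combo (log2 fold change -1.92, standard error 0.46, adjusted p = 0.00795). Lum, a proteoglycan of collagen fibrils, was at 33.2, 42.6, 36.9 and 47.0 CPM in SHP2i and 12.3, 14.1, 23.7, 6.35 and 6.91 CPM in Combo (log2 fold change -1.65, standard error 0.31, adjusted p = 0.00138). In both genes Combo replicates 2 and 3 lay closest to SHP2i and replicates 4 and 5 farthest. Dcn, the proteoglycan decorin, moved the other way, with 167 to 384 CPM in SHP2i and 409 to 1001 CPM in Combo (log2 fold change 1.11, standard error 0.26, adjusted p = 0.00673), as did Pdgfra. Col3a1, of type III collagen, was at -1.75 (adjusted p = 0.043), a call lost without any 1 tumor but Combo replicate 2 or 3 (adjusted p 0.0527 to 0.133), and the fibronectin gene Fn1 at 0.42 (adjusted p = 0.281).

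Among 19 matrix proteases and their inhibitors, 4 were higher and 4 lower; 2 were higher without SHP2i replicate 2, and 2 in each direction without SHP2i replicate 5. Mmp11, stromelysin-3 of tumor stroma, was at 26.6, 27.4, 28.1 and 28.9 CPM in SHP2i and 46.4, 55.7, 59.7, 56.9 and 60.2 CPM in Combo, with no overlap of the groups (log2 fold change 1.01, standard error 0.09, adjusted p = 9.23e-06). Timp2 rose by 0.50 (adjusted p = 0.00629), Timp3 fell by 0.97 (adjusted p = 0.0046), and the aggrecanase Adamts4 fell by 0.90 (adjusted p = 0.000188). Ddr2, a collagen receptor kinase, was at 0.36 (adjusted p = 0.0516), and passed without Combo replicate 3 (adjusted p = 0.0282). Of the 8 collagen receptor genes, Itga10 was the 1 that was higher, and 1 was lower, a call lost without most single tumors.

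Genes of cell division were lower in Combo, unevenly between tumors. Of 33 genes of the cell cycle and DNA replication, 25 were lower and 0 higher by edgeR, with a median of -0.62. In 7 of the 33 every Combo tumor lay below every SHP2i tumor, against 7.26% of all genes tested. Relative to SHP2i, the mean log2 level of the list was -0.14, -0.37, -0.67, -0.87 and -1.31 in Combo replicates 1 to 5. Mybl2, a transcription factor of the S and G2 phases, was at 64.1, 52.3, 60.7 and 47.3 CPM in SHP2i and 37.6, 37.6, 24.8, 19.9 and 13.9 CPM in Combo (log2 fold change -1.07, standard error 0.21, adjusted p = 0.00201). Cdt1, which licenses replication origins, fell by 0.72, the replication helicase gene Mcm5 by 0.76 and the mitotic kinase Plk1 by 0.91 (adjusted p = 0.001, 0.0083 and 0.0042). Mki67, the antigen Ki-67, was at 325, 350.0, 382 and 267 CPM in SHP2i and 323, 267, 251, 136 and 124 CPM in Combo, with Combo replicate 1 inside the SHP2i range (log2 fold change -0.59, standard error 0.24, adjusted p = 0.0891; without that tumor -0.77, adjusted p = 0.033). The number lower was 15 without Combo replicate 4, 12 without SHP2i replicate 3, 7 without Combo replicates 3 and 4, and 4 when the 9 tumors were fitted alone. Of 16 genes of D cyclins and CDK inhibitors, 1 was higher and 2 were lower. Rb1 fell by 0.48 (adjusted p = 0.00075), and Mycn, a MYC family factor at 0.448 to 1.25 CPM in SHP2i, fell by 2.62 (adjusted p = 0.000131).

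Interferon-stimulated genes were lower in Combo, with 25 of 38 lower, 0 higher by edgeR and a median of -0.84. In 7 of the 38 every Combo tumor lay below every SHP2i tumor, against 7.26% of all genes tested. Cxcl10, a chemokine for T cells, was at 41.9, 19.1, 26.4 and 48.9 CPM in SHP2i and 10.6, 6.57, 5.14, 4.36 and 1.55 CPM in Combo (log2 fold change -2.60, standard error 0.39, adjusted p = 0.000293). Cmpk2, a mitochondrial nucleotide kinase, was at 51.0, 33.1, 52.6 and 83.6 CPM in SHP2i and 31.4, 14.3, 13.2, 8.16 and 9.21 CPM in Combo (log2 fold change -1.85, standard error 0.35, adjusted p = 0.00142). Combo replicate 1 was the highest Combo tumor in both, and replicate 5 or 4 the lowest. Oasl1 and Ifi44, interferon-induced genes of antiviral defense, were at -1.59 (adjusted p = 0.0015) and -1.86 (adjusted p = 0.00141). The number lower was 11 without SHP2i replicate 5, whose mean level was the highest of the 9 tumors (0.61 above the SHP2i mean on the log2 scale), 10 without Combo replicates 3 and 4, 16 without Combo replicates 2 and 3, and 15 when the 9 tumors were fitted alone.

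For antigen presentation, none of the 13 genes of MHC class I presentation and none of the 11 of class II passed the test by edgeR, with medians of -0.08 and -0.66, although Combo replicate 5 was far lower than the rest for class II (-2.07). Without Combo replicate 1, 2 class I genes were lower. B2m, the light chain of MHC class I, was at 1719 to 2412 CPM in SHP2i and 1714 to 2313 CPM in Combo (log2 fold change -0.01, standard error 0.11, adjusted p = 0.98). Cd74, the class II invariant chain, was at 595, 439.6, 908 and 1315 CPM in SHP2i and 645, 490.2, 675, 424 and 168 CPM in Combo (log2 fold change -0.76, standard error 0.34, adjusted p = 0.118).

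Genes of neutrophils and inflammatory cytokines were lower. Of 23 neutrophil genes, 11 were lower and 0 higher by edgeR, all 11 of them changed, with a median of -1.27. Il1b, the cytokine interleukin-1 beta, was at 31.1, 21.3, 59.1 and 47.5 CPM in SHP2i and 9.54, 12.2, 8.53, 5.14 and 2.97 CPM in Combo (log2 fold change -2.37, standard error 0.34, adjusted p = 0.000245). Cxcr2, the neutrophil receptor for Cxcl2, was at 5.995, 4.65, 9.58 and 7.43 CPM in SHP2i and 1.88, 2.28, 2.08, 0.691 and 0.443 CPM in Combo (log2 fold change -2.22, standard error 0.55, adjusted p = 0.00922). In both genes the Combo tumors lay below the SHP2i tumors, with replicates 4 and 5 the lowest. The lectin Clec4e fell by 2.32 (adjusted p = 0.00338). Of 31 chemokines and cytokines, 13 were lower and 0 higher by edgeR, with a median of -0.82, among them Csf3, the growth factor of neutrophils, which fell by 1.67 (adjusted p = 0.00421). The neutrophil count was 7 without Combo replicate 4 or 5, 6 without SHP2i replicate 4 and 4 without Combo replicates 3 and 4. That of the chemokines and cytokines was 5 without SHP2i replicate 4 and 5 when the 9 tumors were fitted alone.

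Of 22 macrophage and monocyte genes, 3 were lower and 0 higher by edgeR, with a median of -0.38; 6 were lower without Combo replicate 2 or 3, and 13 without both. Fcgr1, an antibody receptor, was at 16.4, 9.12, 24.8 and 22.3 CPM in SHP2i and 4.03, 5.05, 5.06, 2.42 and 1.37 CPM in Combo (log2 fold change -2.34, standard error 0.36, adjusted p = 0.000432). Msr1, a scavenger receptor, fell by 1.93 (adjusted p = 0.00256), and Ccr2, the chemokine receptor of monocytes, by 1.58 (adjusted p = 0.0193, and 0.0527 and 0.0699 without Combo replicate 4 and SHP2i replicate 4). Of 15 dendritic cell genes, 4 were lower and 0 higher by edgeR, with Clec9a, a marker of cross-presenting cells, falling by 1.26 and Itgax (CD11c) by 2.25 (adjusted p = 0.00318 and 0.00339).

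Lymphocyte genes varied widely among the Combo tumors. The 24 genes of T and NK cells had a median of -0.07, with 3 lower and 1 higher; 7 were lower without Combo replicate 3, 1 without SHP2i replicate 5 and 8 without Combo replicates 3 and 4, and the 1 that was higher was lost without any 1 of the 9 tumors. Klrk1, an activating receptor of NK cells, fell by 1.27 (adjusted p = 0.0118). Of 14 B and plasma cell genes, 2 passed, both higher (0 without Combo replicate 3 or SHP2i replicate 2, 4 or 5), with a median of 2.95, which was -1.25 without Combo replicates 3 and 4. Cd79b, a chain of the B cell receptor, was at 1.17, 0.730, 0.625 and 0.627 CPM in SHP2i and 0.175, 0.358, 18.3, 54.7 and 0.354 CPM in Combo, and only Combo replicates 3 and 4 lay above SHP2i (log2 fold change 4.22, standard error 1.47, adjusted p = 0.0485; -1.41, adjusted p = 0.449, without them, 2.64, adjusted p = 0.178, without replicate 4, and 4.13, adjusted p = 0.059, without replicate 3). Mzb1, of plasma cells, was at 0.656, 5.14, 85.5, 24.8 and 1.15 CPM in Combo and under 2 CPM in SHP2i (log2 fold change 4.61, standard error 1.38, adjusted p = 0.0244; 3.04, adjusted p = 0.0695, without Combo replicate 3, and 1.26, adjusted p = 0.44, without Combo replicates 3 and 4). The lymph node genes Glycam1 and Cxcl13 were highest in the same tumors, Glycam1 at 0.0438, 0.0447, 6.08, 81.7 and 0 CPM in Combo and Cxcl13 at 0.700, 3.08, 9.71, 53.8 and 1.28 CPM, and 2 of the 3 genes of that list were higher. Without Combo replicate 4 the log2 fold changes of Glycam1 and Cxcl13 were 5.43 and 1.15 (adjusted p = 0.222 and 0.32) against 8.88 and 3.02 with it, and the calls of all 4 genes were also lost without SHP2i replicate 2, 4 or 5, and those of Cd79b, Glycam1 and Cxcl13 without SHP2i replicate 3. Among these tumors the part of attached lymph node tissue was not tested. Among 15 checkpoint genes, 4 were lower and 1 higher (2 lower without Combo replicate 4 or SHP2i replicate 2, 4 or 5). Entpd1 (CD39) and Cd276 (B7-H3) fell by 0.34 and 0.48 (adjusted p = 0.00321 and 0.00714), and Ctla4 rose by 0.55 (adjusted p = 0.0127).

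**Figure D4:**
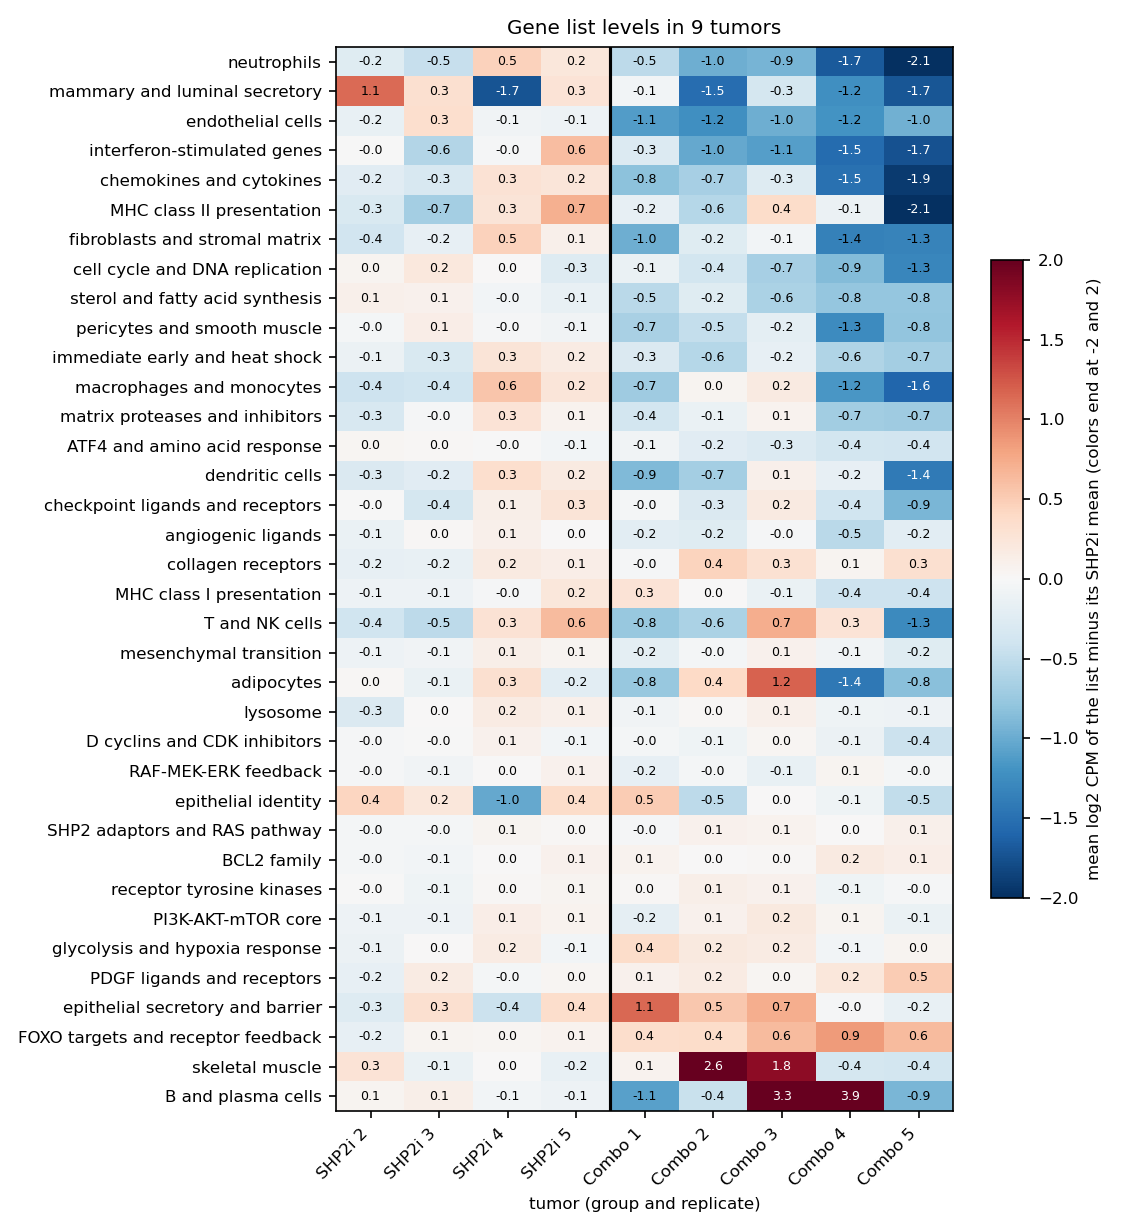
Mean log2 CPM of each gene list in the 4 SHP2i and 5 Combo tumors, minus the SHP2i mean of that list, printed in each cell and colored from -2 (blue) to 2 (red). The short list of lymph node genes is not drawn. The endothelial row is near -1 in every Combo tumor, while neutrophil, interferon and cell cycle rows run lowest in Combo replicates 4 and 5, and the B cell and muscle rows are high in Combo replicates 3 and 4 and in replicates 2 and 3.

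Epithelial identity genes gave few calls. Of 24 epithelial genes, 2 were higher and 1 lower, with a median of 0.02, and Ocln, a tight junction protein, rose, with 1.46 to 2.60 CPM in SHP2i and 2.94 to 7.17 CPM in Combo (log2 fold change 1.11, standard error 0.30, adjusted p = 0.0138). Of 14 genes of mesenchymal transition, 2 were higher and 2 lower. Snai2, a repressor of epithelial genes, fell by 1.53 (adjusted p = 0.00229), and Tgfb3, a TGF-beta ligand, rose by 0.81 (adjusted p = 0.00382). Of 8 mammary and luminal secretory genes, 1 was higher and 2 were lower, none of the lower ones without SHP2i replicate 2. The 1 that was higher, Esr1, the estrogen receptor alpha, was at 18.5, 21.3, 16.8 and 22.1 CPM in SHP2i and 38.0, 34.6, 28.4, 40.2 and 39.6 CPM in Combo, with every Combo tumor above every SHP2i tumor (log2 fold change 0.88, standard error 0.12, adjusted p = 0.000175).

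Stress, survival and metabolic genes gave smaller counts. Of 30 genes of glycolysis and the hypoxia response, 7 were higher and 2 lower, 2 higher without SHP2i replicate 2 and 4 higher without SHP2i replicate 5. Ndrg1, a hypoxia-induced gene, was at 584, 822, 1071 and 749.7 CPM in SHP2i and 1991, 1604, 1417, 1135 and 1705 CPM in Combo (log2 fold change 0.96, standard error 0.22, adjusted p = 0.00589). Egln3, an oxygen-sensing hydroxylase, rose by 0.51 (adjusted p = 0.00487), and the lactate transporter Slc16a3 fell by 1.13 (adjusted p = 0.016, and 0.0548 without SHP2i replicate 4). Of 24 genes of the ATF4 and amino acid response, 7 were lower and 2 higher (4 lower without Combo replicate 4 or 5 or without SHP2i replicate 2 or 4, and 3 when the 9 tumors were fitted alone). Mthfd2, an enzyme of mitochondrial folate metabolism, was at 57.2, 46.6, 38.8 and 35.8 CPM in SHP2i and 27.8, 16.8, 14.9, 12.5 and 6.02 CPM in Combo (log2 fold change -1.52, standard error 0.28, adjusted p = 0.00147), and Shmt2 of the same pathway fell by 0.64 (adjusted p = 0.00191), while the stress gene Nupr1 rose by 0.74 (adjusted p = 0.00563). Among 15 BCL2 family genes, 3 were higher and 2 lower. Besides Bcl2l11, Bmf, another BH3-only inducer of apoptosis, was at 10.8, 13.7, 12.6 and 14.7 CPM in SHP2i and 27.6, 25.9, 24.8, 42.5 and 57.6 CPM in Combo (log2 fold change 1.46, standard error 0.24, adjusted p = 0.000649). The survival gene Bcl2 rose by 0.79 (adjusted p = 0.00728), and Bak1, a pore-forming effector, fell by 0.39 (adjusted p = 0.00618). Ctsl, the lysosomal protease cathepsin L, rose by 0.68 (adjusted p = 0.00179) among 20 lysosome genes of which 2 were higher and 1 lower.

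CLR457 was also compared without SHP099, as PI3Ki against Vehicle, between the other 9 tumors, which share with the comparison above the fit but no tumor. There 267 genes changed (1.75% of those tested), of which 218 were higher (1.43%) and 49 lower (0.321%). Of the 699 genes that changed in Combo against SHP2i, 44 changed in the same direction here, 6.29% of the 699 and 16.5% of the 267, and 5 in the opposite direction. FOXO genes had a median of 0.35 with 8 of 36 higher and 0 lower by edgeR, and sterol genes a median of -0.41 with 15 of 32 lower and 0 higher. At the adjusted p alone, 5.11% of all genes passed, 2.69% higher and 2.42% lower. Msmo1 and Fdps were at -0.94 and -0.78 (adjusted p = 0.000254 and 0.013), and Gadd45a and Insr at 1.19 and 0.49 (adjusted p = 0.0121 and 0.0197). Muscle content differed greatly between these groups, as the sums above show, and with the muscle genes as a covariate 0 genes changed in edgeR, with 1365 at an unadjusted p under 0.05.

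The difference between both effects of CLR457 was tested as the interaction in the same fit, and 378 genes (2.47%) passed an adjusted p of 0.05, 132 with a positive difference (0.864%) and 246 with a negative one (1.61%). Among the 699 changed genes, 160 did, 38 of them higher and 122 lower in Combo. The interaction contains the difference of Combo and SHP2i by which the 699 were chosen. That choice favors a high share, so the share is not evidence of its own. With the muscle genes as a covariate 0 genes passed in edgeR. At an unadjusted p under 0.05 there were 562, fewer than a share of 0.05 of the 15282 genes tested. Relative to the SHP2i mean, the muscle list was at 5.5 to 6.963 in PI3Ki tumors and at most 3.143 in the other tumors. The covariate therefore nearly follows the PI3Ki label, and the fit cannot separate their effects. The cause was not tested. The number of genes with an interaction was 149 to 249 without any 1 of Combo replicates 4 and 5, SHP2i replicates 2, 4 and 5, PI3Ki replicate 2 and Vehicle replicates 2 to 5. It was 605 and 591 without Combo replicates 1 and 3. No sterol gene and 1 FOXO gene, Irs1, was among the 378. Irs1 was at -0.01 for PI3Ki against Vehicle, and the effects differed by 0.82 (adjusted p = 0.0342), which did not pass without any 1 of 9 tumors (adjusted p 0.0503 to 0.0833). Endothelial genes gave 9 of 30 with an interaction. Aplnr was at -0.20 without SHP099, a difference of -2.80 (adjusted p = 0.00276), and Cdh5, Rasip1 and Mcam differed by -1.14 (adjusted p = 0.0154), -1.16 (adjusted p = 0.00897) and -0.93 (adjusted p = 0.00917). Neutrophil genes gave 9 of 23, their median being 1.72 for PI3Ki against Vehicle and -1.27 for Combo against SHP2i. The value for PI3Ki rested on PI3Ki replicate 2, in which the list summed to 3357 CPM against 624 to 874 in the other 3 PI3Ki tumors and 412 to 682 in Vehicle. Without that tumor the median was 0.19 and 4 of 23 had an interaction, and without SHP2i replicate 4 it was 1 of 24. S100a9, a calcium-binding protein of neutrophils, was at 744 CPM in PI3Ki replicate 2, 53.2 to 109.6 CPM in the other PI3Ki tumors and 47.2 to 112.4 CPM in Vehicle (log2 fold change 1.73 (adjusted p = 0.157)), and the effects differed by -4.54 (adjusted p = 0.0266). Without PI3Ki replicate 2 these were 0.11 (adjusted p = 0.948) and -2.93 (adjusted p = 0.0562), and the interaction did not pass either without Combo replicate 4, SHP2i replicate 4 or 5 or Vehicle replicate 4 or 5 (adjusted p 0.0528 to 0.0595). Col1a1 was at 0.86 with a difference of -2.78 (adjusted p = 0.0334), which did not pass without any 1 of 7 tumors (adjusted p 0.0575 to 0.0866). Among the genes that rose, Mmp11, Pdgfa and Itga10 differed by 0.93 (adjusted p = 0.00179), 1.33 (adjusted p = 0.00521) and 2.14 (adjusted p = 0.015).

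**Figure D5:**
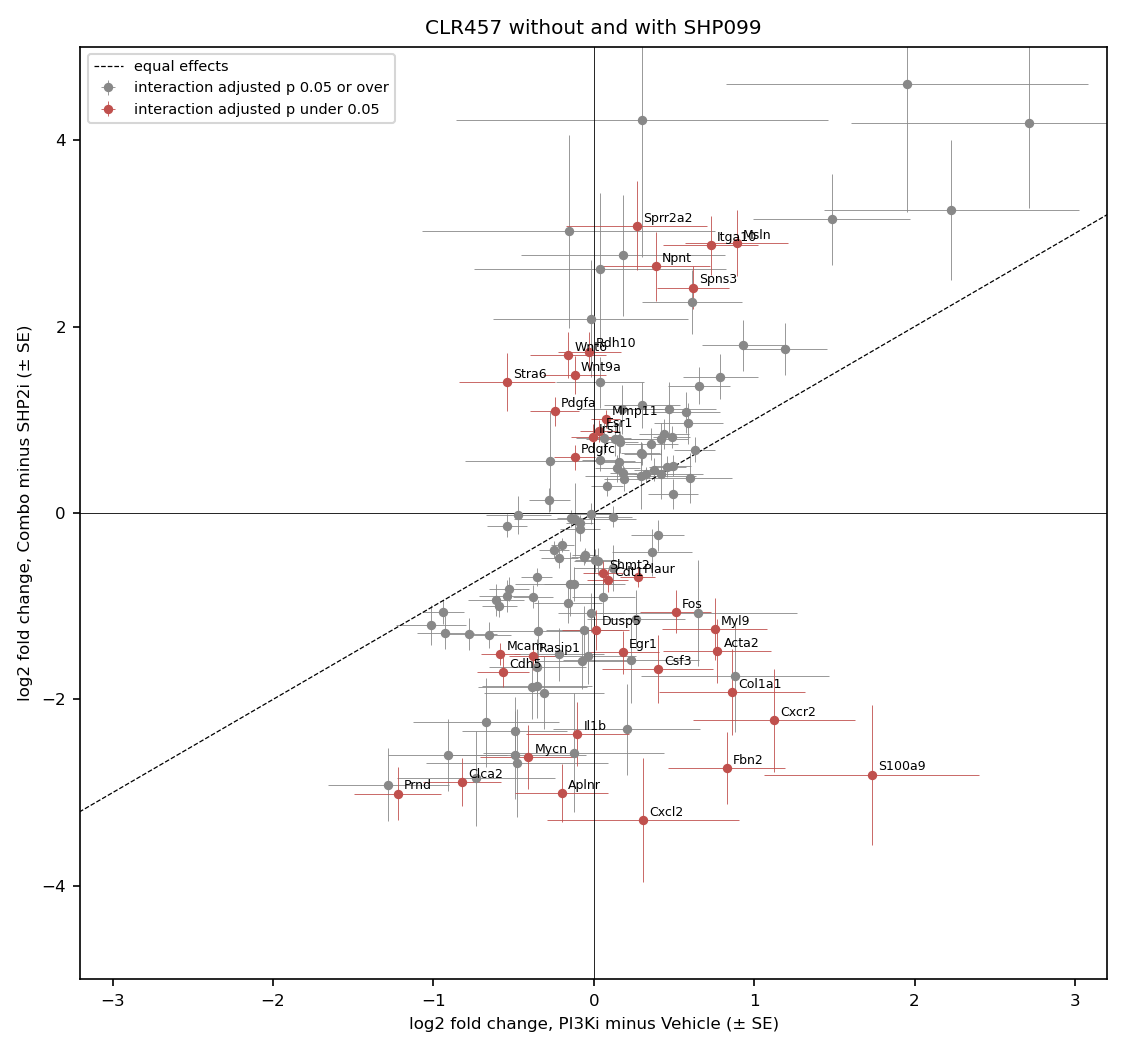
Log2 fold change of CLR457 without SHP099 (PI3Ki minus Vehicle, horizontal) and with it (Combo minus SHP2i, vertical), with standard errors, for 139 of the genes named in the text. Of the set used for the plot, Glycam1 and Myh1 lie outside the axes, and the dashed line marks equal effects. The set leaves out some genes named in the text, among them Trim63. The 36 genes with an interaction at an adjusted p under 0.05 (red, named) lie off the line, among them Mmp11 and Pdgfa above it and Aplnr and Cxcl2 below it.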

How the data were processed

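RNA of 18 4T1 tumors was sequenced, 1 library per tumor, and tumors were grouped by treatment as labelled (Vehicle 5, PI3Ki 4, SHP2i 4, Combo 5). SHP2i replicate 1 and PI3Ki replicate 4 were not analysed here. The authors prepared directional poly(A) libraries, aligned reads with STAR to GRCm38 and used the qCount function (QuasR package) to count reads by gene. The files as deposited hold raw counts, with no scaling. The strand setting of the counting is not given in the sources used here, so genes that overlap others may share reads. The submitters' processing notes name hg19 beside GRCm38.

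Of 22792 genes, 22760 were matched to symbols (GRCm38.p6), and the 32 others held 0.0193% of the counts. Counts of all 18 tumors were fitted with edgeR 4.0.16 (R 4.3.3) with a mean per group, after filterByExpr (minimum count 10, minimum total 15; 15282 genes kept) and TMM scaling. The quasi-likelihood F test was followed by Benjamini-Hochberg adjustment across the 15282 genes. Log2 CPM used a prior count of 2, and each standard error was taken as the size of the log2 fold change over the root of its F. Changed genes had an adjusted p below 0.05 with a log2 fold change beyond 1 in size, while list members count at the adjusted p alone. The fit was also run on simulated counts with known changes in Combo, drawn independently for each gene. Tissue differences shared by many genes, such as those of muscle or B cells, were not simulated. The outcome is not reported here. Tumors of 1 group differed beyond sampling noise in all 32 pairs, and nothing states whether they were grown in separate cohorts.

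The groups compared, gene lists and tests were chosen with earlier results of these data known. Genes named are the 12 with the largest change in each direction among changed genes with mean log2 CPM over 1 and no overlap, in each list the 4 members of lowest p and the 2 most abundant, all members of lists of up to 8 genes, and targets and receptors of the study. Some genes that the rule names are not reported here. Exceptions say that they were named after seeing values. Alternatives were DESeq2 1.42.0, other scalings and filters, limma's voom with quality weights (3.58.1), glmTreat, no fold minimum, the 9 tumors alone, a replicate block, covariates for B cell and muscle genes, and tumors left out.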

Additional observations from a re-analysis of the deposited data

Results flagged for a closer look

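Among single tumors of the 9, some lay far from the rest of their group in a gap test (chance gives this in about 1 of 20 groups). For lists, relative to the SHP2i mean on the log2 scale, these were SHP2i replicate 2 for FOXO genes (-0.164), SHP2i replicate 3 for endothelial genes (0.34) and SHP2i replicate 4 for epithelial genes (-1.02). For genes they were Aldh1a1 in Combo replicate 5 (36.05 CPM), Sgk1 in Combo replicate 2 (115.3 CPM), Pdgfd in Combo replicate 4 (2.20 CPM), Ctsl in Combo replicate 1 (823.6 CPM), Pdgfra and Glycam1 in SHP2i replicate 2 (209.4 and 0.121 CPM), Mcam in SHP2i replicate 3 (153.6 CPM) and Myh1 in SHP2i replicate 5 (0.0895 CPM). Of 74 list groups tested, 3 stood out, and of 282 gene groups, 8.

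The effect of CLR457 differed with and without SHP099 (interaction in edgeR, adjusted p under 0.05) for the following named genes, given as the log2 fold change in Combo against SHP2i minus that in PI3Ki against Vehicle. Positive differences were found for Sprr2a2 (2.81), Npnt (2.26), Itga10 (2.14), Msln (2.01), Stra6 (1.95), Wnt6 (1.85), Spns3 (1.80), Rdh10 (1.76), Wnt9a (1.601), Pdgfa (1.33), Mmp11 (0.93), Esr1 (0.85), Irs1 (0.82) and Pdgfc (0.72). Negative differences among vascular, stromal and epithelial genes were those of Fbn2 (-3.56), Aplnr (-2.80), Col1a1 (-2.78), Acta2 (-2.25), Clca2 (-2.06), Myl9 (-1.995), Prnd (-1.79), Rasip1 (-1.16), Cdh5 (-1.14) and Mcam (-0.93). Negative differences among neutrophil and cytokine genes were those of S100a9 (-4.54), Cxcl2 (-3.60), Cxcr2 (-3.35), Il1b (-2.27) and Csf3 (-2.07). Genes of ERK output and growth gave Mycn (-2.21), Egr1 (-1.68), Fos (-1.57), Dusp5 (-1.26), Plaur (-0.96), Cdt1 (-0.81) and Shmt2 (-0.70). Of these 36 genes, 21 passed whichever single tumor was left out and 15 did not, 10 of them without PI3Ki replicate 2. The 15 were Sprr2a2, Npnt, Msln, Stra6, Irs1, Pdgfc, Col1a1, Myl9, S100a9, Cxcl2, Cxcr2, Csf3, Dusp5, Cdt1 and Shmt2. With the muscle genes as a covariate none of the 36 passed in edgeR.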

How the results depend on the processing

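In the comparison of Combo with SHP2i, 220 genes were changed and higher and 479 changed and lower. DESeq2, RLE and upper quartile scaling, scaling to the library total, no filter on low counts, a minimum count of 50, voom, covariates for B cell or muscle genes and the 9 tumors alone gave 150 to 251 higher and 336 to 663 lower, within 1.5 times, and the DESeq2 and voom calls held 684 and 563 of the 699. glmTreat, which tests against the fold limit, gave 13 and 53, and no fold minimum 1798 and 1577. Leaving out 1 tumor gave 162 to 262 higher and 365 to 684 lower. Without Combo replicates 2 and 3, an alternative chosen after seeing the data, 275 were higher and 916 lower, and without Combo replicates 3 and 4 they were 185 and 598.

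For PI3Ki against Vehicle, 267 genes changed, 174 with a minimum count of 50, 103 with glmTreat, 0 in edgeR with the muscle covariate (1365 at an unadjusted p under 0.05) and 781 with no fold minimum, and 189 to 279 when 1 tumor was left out. The interaction gave 378 genes, 755 with DESeq2, 161 with the B cell covariate, 0 in edgeR with the muscle covariate (562 at an unadjusted p under 0.05) and 1243 without Combo replicates 2 and 3. It ran from 149 without SHP2i replicate 4 to 605 without Combo replicate 1. The muscle covariate nearly follows the PI3Ki label, so the fit cannot separate their effects. The cause of these shifts was not tested.

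Replicate numbers did not pair the tumors. Deviations of same-numbered SHP2i and Combo tumors correlated at -0.212, -0.286, -0.112 and -0.135, and none of the 4 SHP2i tumors correlated best with its own number. With the replicate block, 203 genes were higher and 466 lower, 204 changed for PI3Ki against Vehicle and 200 passed the interaction.

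Some values turned direction. Without Combo replicates 3 and 4 the median of the B and plasma cell list was -1.25 and that of the lymph node list -0.113, with Cd79b at -1.41, Glycam1 at -0.113 and Cxcl13 at -0.007. Without Combo replicates 2 and 3, Scd1 was at -0.973 and Myh1 at -1.57. At 21.6 M counts or more, counting error is largest for genes under about 1 CPM, such as Mycn, Epha7 and Glycam1.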

Other observations

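Some genes of WNT signaling and of retinoid handling, and the stress gene Trp53inp1, were named after their values were seen, and they are given as values with no count or test over them. Wnt6, a secreted WNT ligand, was at 72.8, 167, 73.7 and 85.8 CPM in SHP2i and 371, 313, 275, 302 and 356 CPM in Combo (log2 fold change 1.70, standard error 0.24, adjusted p = 0.000245). Wnt9a and Wnt10a, other ligands of the family, rose by 1.48 (adjusted p = 0.000156) and 1.402 (adjusted p = 0.00209). Rdh10, which converts retinol to retinal, was at 125, 178, 92.6 and 96.1 CPM in SHP2i and 368, 379.7, 304, 540.3 and 453 CPM in Combo (log2 fold change 1.73, standard error 0.21, adjusted p = 6.13e-05). Stra6, a receptor for the retinol carrier, rose by 1.41 (adjusted p = 0.00445). In each of these 5 genes every Combo tumor lay above every SHP2i tumor, as in 9.86% of all genes tested. They were picked with these values in view, so this describes the genes and tests nothing. For PI3Ki against Vehicle, Wnt6, Wnt9a, Wnt10a, Rdh10 and Stra6 were at -0.16, -0.12, 0.04, -0.03 and -0.54 (adjusted p = 0.788, 0.81, 0.962, 0.965 and 0.347). Trp53inp1, which p53 induces, was at 10.5, 10.8, 11.9 and 13.4 CPM in SHP2i and 25.1, 22.5, 64.5, 52.3 and 38.1 CPM in Combo (log2 fold change 1.80, standard error 0.28, adjusted p = 0.000394).

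Myh1, a myosin of fast muscle fibers, was the 1 muscle gene past the threshold, at 0.0438, 15.5, 5.59, 0 and 0 CPM in Combo and under 0.1 CPM in SHP2i (log2 fold change 6.16, standard error 2.11, adjusted p = 0.0448). The call was lost without Combo replicate 2 (4.61, adjusted p = 0.131), without Combo replicate 3 (adjusted p = 0.0581) and without any 1 SHP2i tumor (adjusted p 0.0876 to 0.106). It was at -1.57 (adjusted p = 0.809) without Combo replicates 2 and 3.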
